A study of Mus musculus with 16 samples.

Results

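The Hox genes encode homeodomain transcription factors and lie in 4 clusters, HoxA to HoxD. The 39 members described here are the rows of the deposited expression table whose symbol is Hox followed by a cluster letter and a paralog number, out of 53711 genes in the table. They comprise 11 HoxA genes on chromosome 6, 10 HoxB genes on chromosome 11, 9 HoxC genes on chromosome 15 and 9 HoxD genes on chromosome 2 of the mouse genome. The rule used symbols only and no measured value. Below, paralogs 1 to 4 are called anterior (12 genes), 5 to 8 central (11 genes) and 9 to 13 posterior (16 genes). A second entry named Hoxd4, which never exceeded 0.0176 FPKM, was set aside.

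Hox genes give cells their position along the head-to-tail axis. Within a cluster the order on the chromosome matches the order of the expression domains, so that genes with low paralog numbers are active further toward the head and those with high numbers toward the tail, a property called collinearity. HOX proteins bind DNA together with PBX, MEIS and PKNOX cofactors, anterior Hox genes are known targets of retinoic acid, and Polycomb and Trithorax group proteins hold the clusters silent or active. In the gut, nested Hox domains are best known from the mesenchyme, and Hoxa5 is known to be needed there for normal stomach regionalization in the mouse.

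The study asked how the proximal stomach (the forestomach side, which becomes squamous) and the distal stomach (the glandular side, which becomes columnar) separate in the mouse embryo. All samples carry the labels Sox2-EGFP; Gata4-td Tomato, knock-in reporters for Sox2 and Gata4, and per the study's crosses 1 allele of each gene carries the reporter, in all groups alike. EpCAM-positive epithelial cells at embryonic day E13.5 were sorted by reporter level into Gata4hi (3 libraries), Sox2midGata4mid (2 libraries) and Sox2hi (3 libraries), and at E11.5 into Gata4hi and Sox2hi (1 library each). PDGFRA-positive fibroblasts were taken from the distal and the proximal stomach at 3 stages (E13.5, then E15.5, then E17.5), with 1 library per region and stage. No agent was given. No source used here says whether libraries of a group came from separate embryos or pools, so p-values measure the spread between these libraries, which may be technical.

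Values are FPKM, read fragments per kilobase of transcript and per 1000000 mapped fragments, so levels can be compared between genes. Read totals are not given. From the steps between low values, relative depth ran from 0.394 of that of Sox2hi E13.5 replicate 1 (proximal fibroblasts, E13.5) to 1.07 of it, and a gene listed at 0 may be present below detection. The sorted groups carried the markers of their labels. Gata4 was at 157 to 199 FPKM in Gata4hi cells at E13.5, 40.0 to 84.4 in Sox2midGata4mid cells and 3.21 to 7.26 in Sox2hi cells. Sox2 differed far less, at 49.9 to 61.2, 73.3 to 73.8 and 85.7 to 94.1 FPKM in the same groups in that order. At E11.5 Gata4 was at 229 FPKM in Gata4hi and 25.9 FPKM in Sox2hi cells, and Sox2 at 69.1 and 87.5 FPKM. The Sox2hi library of E11.5 thus held more Gata4 than those of E13.5. Pdgfra was at 139 to 217 FPKM in fibroblasts and at most 2.65 FPKM in the 10 epithelial libraries, and Epcam was at 0.346 to 4.95 FPKM in fibroblasts and 199.9 to 262.9 FPKM in epithelium. A list of 9 mesenchymal markers summed to at least 4955 FPKM in fibroblasts, against 18.6 to 50.1 FPKM in the epithelial libraries.

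Of the 39 Hox genes, 20 reached 1 FPKM in at least 1 library. Fibroblasts carried all 20 of these genes and epithelium 11 of them. By position, 8 of 12 anterior, 10 of 11 central and 2 of 16 posterior genes reached 1 FPKM. By cluster, these were 8 HoxA, 8 HoxB, 3 HoxC genes and 1 HoxD gene, Hoxd8. The other 19 genes stayed at or below 0.89 FPKM in every library, and 7 of them (Hoxc9, Hoxc10, Hoxc12, Hoxc13, Hoxd1, Hoxd10 and Hoxd12) were listed at 0 throughout. The posterior genes that reached 1 FPKM were Hoxa9, at 3.12, 1.73 and 0.515 FPKM in proximal fibroblasts in stage order, and Hoxb9, at 2.68 FPKM in proximal fibroblasts at E13.5 and at most 0.105 FPKM elsewhere. In distal fibroblasts Hoxa9 was at 0.219, 0 and 0 FPKM at the same 3 stages.

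**Figure D1:**
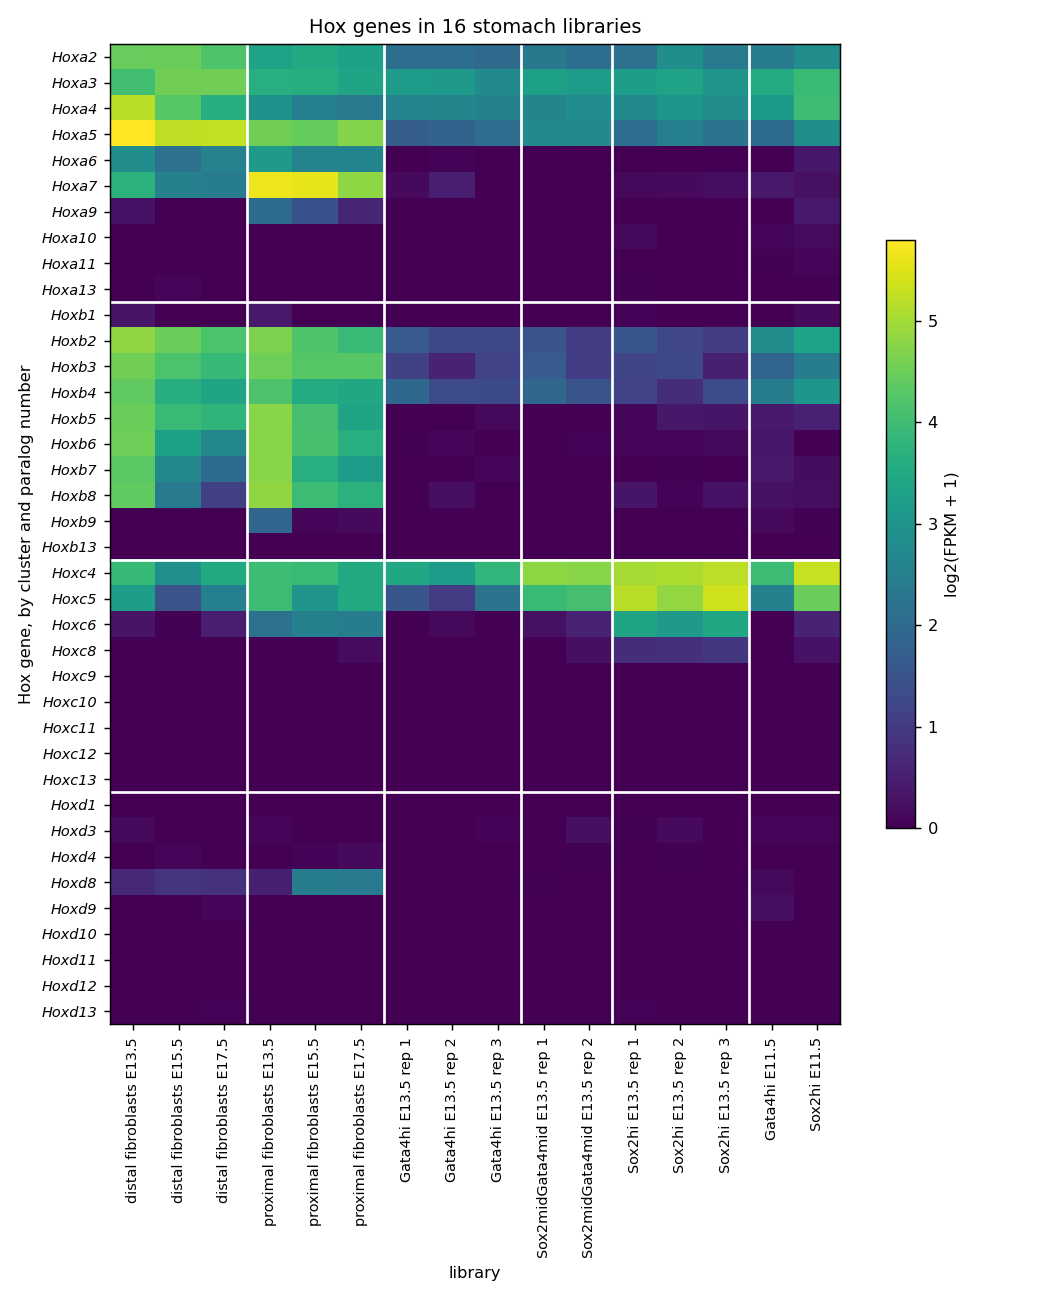
Level of the Hox genes shown (rows, by cluster and paralog number) in each of the 16 libraries (columns) as log2(FPKM + 1), with white lines between groups and clusters. Signal sits in the anterior and central HoxA, HoxB and HoxC genes, epithelium shows almost no HoxA or HoxB signal above paralog 5, and 7 genes are at 0 throughout.

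The share of each cluster in the Hox signal varied between libraries. Summed over a cluster, HoxB gave 62.8 to 172.1 FPKM in fibroblasts and 3.54 to 21.97 FPKM in epithelium. HoxC gave 8.32 to 33.1 FPKM in fibroblasts, against 69.4 to 87.8 FPKM in Sox2hi cells at E13.5. Of all Hox signal in a library, HoxC supplied 25.9% to 40.0% in Gata4hi cells, 53.6% to 56.1% in Sox2midGata4mid cells and 64.7% to 74.9% in Sox2hi cells at E13.5. In fibroblasts its share was 4.14% to 13.1%. The HoxA share was 49.6% to 63.9% in Gata4hi cells at E13.5, 50.9% in the E11.5 Gata4hi library and 45.4% to 55.7% in distal fibroblasts. It was 35.0% to 43.2% in proximal fibroblasts, 37.7% and 38.4% in Sox2midGata4mid cells and 39.9% in the E11.5 Sox2hi library. In Sox2hi cells at E13.5 it was 22.1% to 31.5%. The HoxA sum itself was not higher in Gata4hi cells at E13.5, at 20.8 to 23.6 FPKM, against 25.8 to 33.8 FPKM in Sox2hi cells. These sums are a description over the libraries, with no test.

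**Figure D2:**
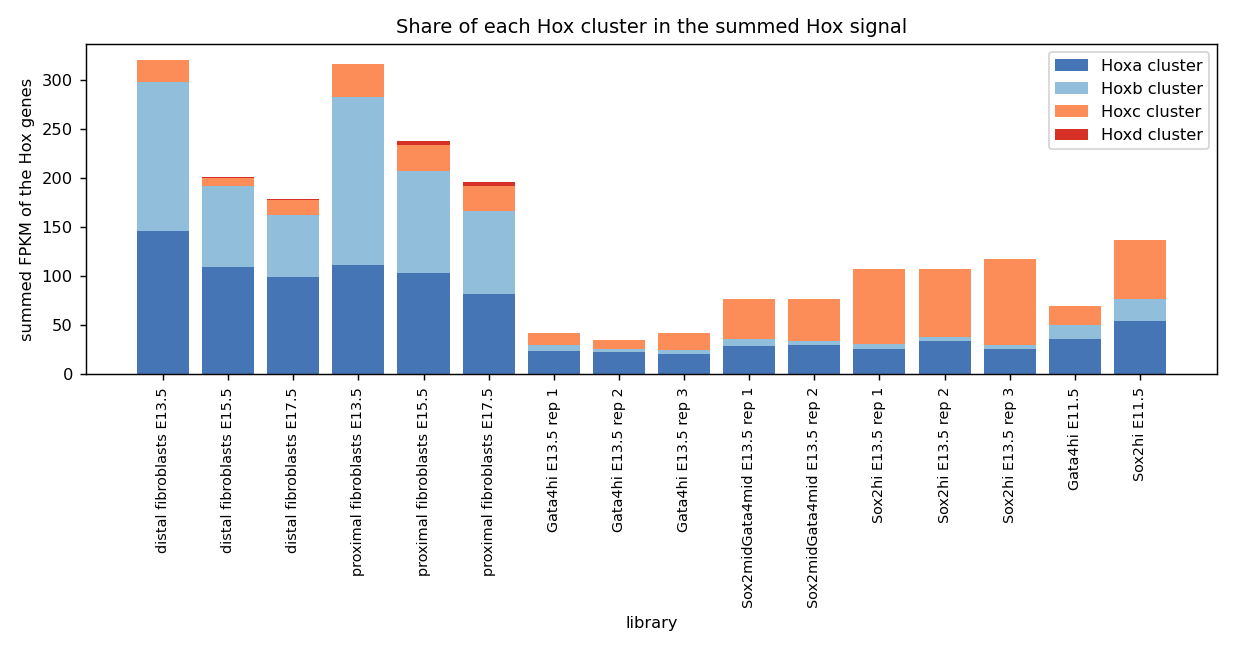
Summed FPKM of the HoxA, HoxB, HoxC and HoxD genes, stacked, in each of the 16 libraries. HoxC makes up most of the bar in the 3 Sox2hi libraries at E13.5 and a small part of it in fibroblasts, where HoxA and HoxB dominate, and HoxD is visible only in proximal fibroblasts at E15.5 and E17.5.

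Within the E13.5 epithelium, the Hox genes called different between Gata4hi and Sox2hi cells were all in HoxC. Hoxc4, Hoxc5 and Hoxc6, neighbours on chromosome 15, were all lower in Gata4hi than in Sox2hi cells, and the more posterior the gene, the nearer to 0 its level in Gata4hi cells. In the deposited table (mm10, plus strand) Hoxc4 spans chr15:103018934-103036852, Hoxc6 chr15:102998257-103011881, and Hoxc5 chr15:102967443-103017429, a long model that contains Hoxc6 and shares an exon stretch with Hoxc10 but none with Hoxc6. Hoxc4 was at 10.2, 8.04 and 13.1 FPKM in Gata4hi cells, 26.9 and 26.4 FPKM in Sox2midGata4mid cells and 31.6, 33.0 and 36.5 FPKM in Sox2hi cells. The 3 groups did not overlap. Hoxc5 was at 1.91, 1.02 and 3.67 FPKM in Gata4hi cells, 13.99 and 15.9 FPKM in Sox2midGata4mid cells and 35.1, 28.1 and 40.4 FPKM in Sox2hi cells, again with no overlap. Hoxc6 was at 0, 0.0955 and 0 FPKM in Gata4hi cells, 0.200 and 0.472 FPKM in Sox2midGata4mid cells and 9.47, 7.60 and 10.05 FPKM in Sox2hi cells. Thus Sox2midGata4mid cells held most of the Sox2hi level of Hoxc4, an intermediate level of Hoxc5 and almost none of Hoxc6. Hoxc8, the next gene of the cluster, was listed at 0 in all 3 Gata4hi libraries, at 0 and 0.175 FPKM in Sox2midGata4mid cells and at 0.688, 0.725 and 0.890 FPKM in Sox2hi cells, too low for the filter of a mean of 1 FPKM.

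**Figure D3:**
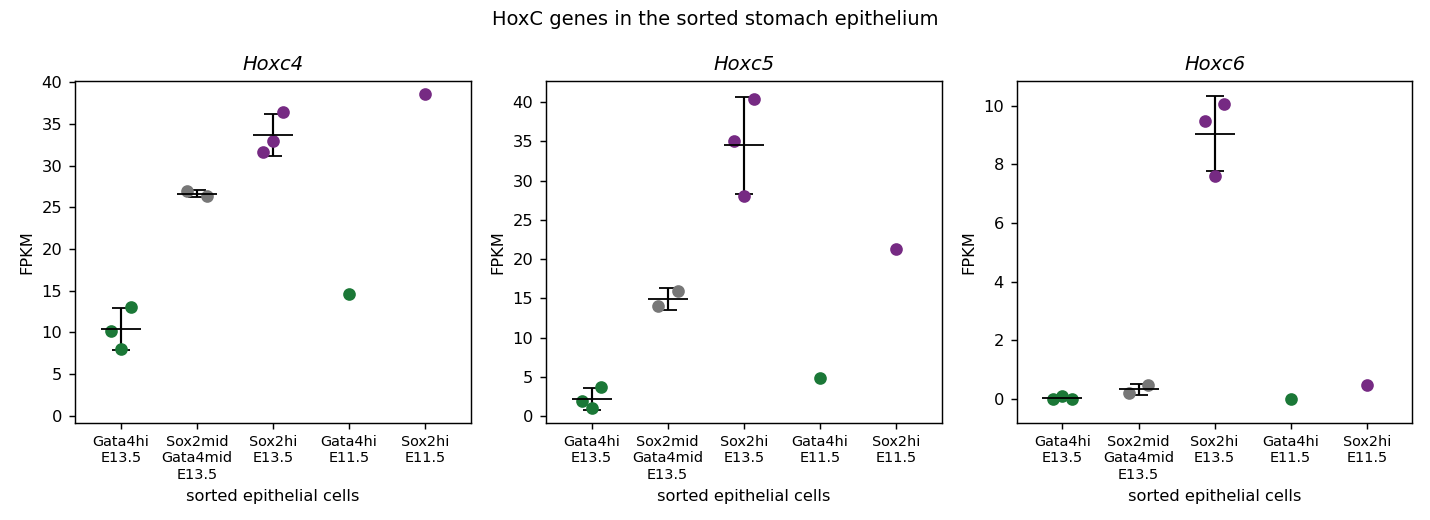
FPKM of Hoxc4, Hoxc5 and Hoxc6 in each sorted epithelial library (points), with the mean and SD (black) where a group has more than 1 library. At E13.5 all 3 genes are lowest in Gata4hi and highest in Sox2hi cells, and Hoxc6 leaves the floor only in the 3 Sox2hi libraries, between 7.60 and 10.05 FPKM.

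These differences were tested with limma on log2(FPKM + 1) over genes whose mean across the 8 E13.5 epithelial libraries reached 1 FPKM, with Benjamini-Hochberg adjustment over all 13127 genes tested and a threshold of 0.05. Each log2 difference below is on that scale, which understates changes of low genes. Of the 11 Hox genes tested, 3 were called lower in Gata4hi than in Sox2hi cells and 0 higher, where 6.7% of all genes tested were called lower. The log2 difference was -1.62 ± 0.16 (SE, limma adjusted p = 2.8e-04) for Hoxc4. It was -3.54 ± 0.29 (SE, limma adjusted p = 1.3e-04) for Hoxc5 and -3.28 ± 0.19 (SE, limma adjusted p = 2.5e-05) for Hoxc6. Hoxc6 passed the filter only through Sox2hi cells, so it had to differ. Over the 11 genes the median log2 difference was -0.29, against 0.08 over all genes. The other 8 Hox genes differed by -0.43 to 0.42, with adjusted p of 0.127 or more. In bulk cells, fewer cells of a type and less RNA per cell cannot be told apart. The 5 mesothelial markers, which also differed, summed to 7.48 to 10.6 FPKM in Gata4hi and 1.39 to 1.94 FPKM in Sox2hi cells, mostly from Msln in Gata4hi cells, and their part in the result was not tested. Other marker sums were also higher in Gata4hi cells. Intestinal markers summed to 12.2 to 16.4 FPKM in Gata4hi and 2.32 to 2.45 FPKM in Sox2hi cells, mostly from Vil1 in Gata4hi cells. Cdx1 of this list was at 0 in Gata4hi and 0.441 to 0.817 FPKM in Sox2hi cells. Enteric neural crest and neuron markers summed to 28.1 to 40.4 FPKM in Gata4hi and 6.31 to 11.3 FPKM in Sox2hi cells, mostly from Gfra1. Sox10 of this list was at most 0.280 FPKM in Gata4hi and 0.205 to 0.358 FPKM in Sox2hi cells. Pancreatic markers summed to 2.07 to 3.54 FPKM in Gata4hi and 0.0716 to 0.196 FPKM in Sox2hi cells, mostly from Nkx6-1 in Gata4hi cells. The part of these markers in the result was not tested either. On the scale of a fixed sum of 1000000 per library, 1236 genes were higher and 1359 lower in Gata4hi cells, against 1955 and 879 on the FPKM scale, and the same number of Hox genes, 3, was lower on both.

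Against Sox2hi cells, Sox2midGata4mid cells had 1 Hox gene called lower, Hoxc6, and 0 called higher of the 11 tested (3.01% of all 13127 genes were lower). The log2 difference of Hoxc6 was -2.91 ± 0.21 (SE, limma adjusted p = 6.5e-04). This gene passed the filter only through Sox2hi cells, so here too it had to differ. Hoxc5 had a log2 difference of -1.14 ± 0.32 (SE, limma adjusted p = 0.0888), and Hoxc4 of -0.33 ± 0.18 (SE, limma adjusted p = 0.33). Against Gata4hi cells, Sox2midGata4mid cells had 3 Hox genes called higher, Hoxa5, Hoxc4 and Hoxc5, and 0 lower, where 2.59% of all genes were called higher. Their log2 differences were 0.87 ± 0.18 (SE, limma adjusted p = 0.0197) for Hoxa5 and 1.30 ± 0.18 (SE, limma adjusted p = 0.00495) for Hoxc4. For Hoxc5 it was 2.40 ± 0.32 (SE, limma adjusted p = 0.00477). Hoxa5 stood highest in the intermediate cells, at 5.80 and 5.60 FPKM, against 2.28, 2.60 and 3.21 FPKM in Gata4hi cells and 3.29, 4.71 and 3.61 FPKM in Sox2hi cells. Its difference from Sox2hi cells, 0.47 ± 0.18 (SE, limma adjusted p = 0.18), did not pass the threshold. Leaving out 1 library at a time, the call of Hoxa5 was lost in 4 of 8 fits (adjusted p from 0.0224 to 0.0934).

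At E11.5, with 1 library a group and so no test, Hoxc4 and Hoxc5 were already apart. Hoxc4 was at 14.7 FPKM in Gata4hi cells and 38.6 FPKM in Sox2hi cells, and Hoxc5 at 4.84 FPKM in Gata4hi cells and 21.3 FPKM in Sox2hi cells. They were the 2 of 10 Hox genes above the filter whose log2(FPKM + 1) was lower by 1 or more in Gata4hi cells, as 3.86% of all 12890 genes were, and 0 were higher by 1 or more. Hoxc6 was listed at 0 in Gata4hi cells and at 0.475 FPKM in Sox2hi cells at E11.5. The change of the Gata4hi over Sox2hi difference between stages was tested with 1 E11.5 library a group, a test chosen after the values were seen. The E11.5 arms have no spread of their own, and the lone libraries are assumed to vary like those of E13.5. Gata4 was at 25.9 FPKM in the Sox2hi library of E11.5 and at 3.21 to 7.26 FPKM in those of E13.5. Hoxc6 passed the filter of this fit only through Sox2hi cells of E13.5. limma called 1 of 11 Hox genes, Hoxc6, lower (0.48% of 13114 genes), with -2.71 ± 0.32 (SE, limma adjusted p = 0.0193). The call was lost in 5 of 6 fits with 1 library left out, and 0 Hox genes were called lower with a pseudocount of 0.1, so the value is given as a description.

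The RefSeq promoter of Hoxc4 is shown here because the HoxC genes moved together, and it serves for comparison with the HoxA promoters below. It spans 250 bases before to 50 after the RefSeq start, at chr15:103034145-103034444 on the plus strand of GRCm38.p6, within the span of the gene in the deposited table (103018934 to 103036852), which begins at a start further upstream. The letters searched on both strands were TGATTNAT (bound by HOX and PBX proteins together), AGGTCA (a core site of retinoic acid receptors) and GATAAG (bound by GATA factors). Matches are in capitals, with no overlap between motifs here.
Hoxc4: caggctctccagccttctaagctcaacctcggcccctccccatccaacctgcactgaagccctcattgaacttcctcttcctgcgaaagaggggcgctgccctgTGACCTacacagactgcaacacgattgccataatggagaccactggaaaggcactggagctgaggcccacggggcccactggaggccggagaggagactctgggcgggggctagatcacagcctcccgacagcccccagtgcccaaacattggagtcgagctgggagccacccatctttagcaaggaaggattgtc
Of the 32851 promoters in the table, 16.3% held AGGTCA, 3.22% TGATTNAT and 7.44% GATAAG. Of the 24 promoters of 22 Hox genes in it, 7 held AGGTCA, 2 TGATTNAT and 2 GATAAG. Hoxc4 has 1 AGGTCA match, on the reverse strand as TGACCT. A match is a description of letters and no evidence of binding.

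The HoxA and HoxB genes that reached 1 FPKM in epithelium had no paralog number above 5, and none of them passed the test between Gata4hi and Sox2hi cells at E13.5. Hoxa3, known from the development of pharyngeal organs and the most abundant of them, was at 8.08, 7.60 and 5.87 FPKM in Gata4hi cells and 8.49, 9.15 and 7.08 FPKM in Sox2hi cells, and these groups overlapped. Hoxa4 was at 5.05, 5.19 and 4.86 FPKM in Gata4hi cells and 5.74, 7.28 and 6.19 FPKM in Sox2hi cells, a small gap without overlap, and its log2 difference was -0.29 ± 0.12 (SE, limma adjusted p = 0.135). Hoxa2 was between 3.04 and 6.37 FPKM across the 8 libraries. It was at 3.24, 3.25 and 3.04 FPKM in Gata4hi cells and 3.54, 6.37 and 4.30 FPKM in Sox2hi cells, also without overlap. Its log2 difference was -0.43 ± 0.19 (SE, limma adjusted p = 0.161). Hoxb2, Hoxb3 and Hoxb4 lay between 0.424 and 2.81 FPKM in all 8 libraries. Hoxa6, Hoxa7, Hoxb5, Hoxb6, Hoxb7 and Hoxb8 did not exceed 0.447 FPKM in any of the 10 epithelial libraries.

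Hoxa4, Hoxb2 and Hoxb4, all anterior genes, were lower at E13.5 than at E11.5 in epithelium. Hoxb2, known for patterning the hindbrain, was at 2.16, 1.40 and 1.39 FPKM in Gata4hi cells and 1.92, 1.37 and 1.07 FPKM in Sox2hi cells at E13.5, against 6.19 FPKM in Gata4hi and 9.31 FPKM in Sox2hi cells at E11.5. Hoxb4, also known from blood stem cells, was at 2.81, 1.49 and 1.45 FPKM in Gata4hi cells and between 0.705 and 1.5 FPKM in Sox2hi cells at E13.5, against 4.44 and 7.32 FPKM in the Gata4hi and Sox2hi libraries at E11.5. Neither gene overlapped between stages. Hoxa4 was at 7.91 FPKM in Gata4hi and 14.99 FPKM in Sox2hi cells at E11.5, above all 6 Gata4hi and Sox2hi libraries of E13.5. Hoxa3 and Hoxb3, also anterior, had lower values at E13.5 too. Hoxa3 was at 10.9 FPKM in Gata4hi and 13.9 FPKM in Sox2hi cells at E11.5, against 5.87 to 9.15 FPKM at E13.5. Hoxb3 was at 2.68 FPKM in Gata4hi and 4.47 FPKM in Sox2hi cells at E11.5, against 0.424 to 1.43 FPKM at E13.5.

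With the sorted group as a block, limma called 4 of the 11 Hox genes tested lower at E13.5 and 0 higher, where 3.67% of 13114 genes were called lower. The log2 differences were -1.77 ± 0.23 (SE, limma adjusted p = 0.00953) for Hoxb2 and -1.45 ± 0.30 (SE, limma adjusted p = 0.037) for Hoxb4. For Hoxa4 it was -0.84 ± 0.15 (SE, limma adjusted p = 0.0245). Hoxa3, with -0.62 ± 0.15 (SE, limma adjusted p = 0.0516), and Hoxb3, with -1.19 ± 0.30 (SE, limma adjusted p = 0.0641), fell just short of the threshold. Hoxc4 and Hoxc5 did not pass the test, with -0.34 ± 0.17 (SE, limma adjusted p = 0.258) for Hoxc4 and -0.15 ± 0.41 (SE, limma adjusted p = 0.854) for Hoxc5. The earlier stage rests on 1 library a group: without the E11.5 Sox2hi library 0 Hox genes were called (limma adjusted p of these 4 from 0.0759 to 0.27), without the E11.5 Gata4hi library Hoxc6 was called higher, and without Sox2hi replicate 1, Sox2hi replicate 2 or Gata4hi replicate 3 of E13.5, 2 were called lower. Blood markers summed to at most 2.82 FPKM at E13.5, against 55.4 FPKM in Gata4hi and 7.81 FPKM in Sox2hi cells at E11.5, and their part in the result was not tested. The lung marker Nkx2-1 was at 3.89 FPKM in the E11.5 Sox2hi library and at most 0.0545 FPKM in the others, and its part in the result was not tested. Gata4 was at 25.9 FPKM in that library and at 3.21 to 7.26 FPKM in Sox2hi cells of E13.5. Cells of the same label were therefore not alike in Gata4 at both stages, and the part of this was not tested.

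Fibroblasts carried far more Hox signal than epithelium. At E13.5 all Hox genes together summed to 321.0 FPKM in distal and 316.7 FPKM in proximal fibroblasts, against 35.4 to 117.3 FPKM in the 8 epithelial libraries. Hoxb5 to Hoxb8 made the sharpest contrast. Hoxb5 was at 21.7 FPKM in distal and 26.2 FPKM in proximal fibroblasts, and at most 0.289 FPKM in E13.5 epithelium. Hoxb7 was at 19.0 FPKM in distal and 26.3 FPKM in proximal fibroblasts, and at most 0.0594 FPKM in E13.5 epithelium. Hoxa5 was at 54.6 and 22.2 FPKM in distal and proximal fibroblasts, against 2.28 to 5.80 FPKM in E13.5 epithelium.

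Of the 17 Hox genes tested at E13.5, 13 were higher in fibroblasts and 2 lower, where 30.5% of 13502 genes were called higher and 23.3% lower. The 13 were Hoxa2 to Hoxa7 and Hoxb2 to Hoxb8, and Hoxc4 was among the 2. Hoxa6, Hoxa7 and Hoxb5 to Hoxb8 passed the filter only through fibroblasts, so they had to differ. Log2 differences reached 4.58 ± 0.16 (SE, limma adjusted p = 6.8e-08) for Hoxb6 and 4.57 ± 0.41 (SE, limma adjusted p = 2.0e-05) for Hoxa7. The smallest among the higher genes was that of Hoxa3, 0.68 ± 0.15 (SE, limma adjusted p = 0.00504). Hoxc4 differed by -0.52 ± 0.15 (SE, limma adjusted p = 0.0147). For Hoxc4 the groups overlapped, as Gata4hi cells had at most 13.1 FPKM and the 2 fibroblast libraries 13.8 and 14.98 FPKM. Hoxa4 overlapped too, at 35.2 FPKM in distal and 6.76 FPKM in proximal fibroblasts and up to 7.28 FPKM in E13.5 epithelium. Its log2 difference was 1.33 ± 0.44 (SE, limma adjusted p = 0.0296), it ran from 0.22 to 2.44 with 1 library left out, and the call was lost in 3 of 10 such fits, with 0.22 (adjusted p = 0.276) without the distal library. The median over the 17 genes was 2.87, against 0.08 over all genes. Hoxc5 and Hoxc6, spread widely within the epithelium, did not pass the threshold, with log2 differences of 0.02 and -0.03. With values rescaled to a sum of 1000000 per library the median of all genes moved to -0.27, and Hoxa3 and Hoxa4 were no longer called. Without the distal library, 11 were called higher and 1 lower.

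Several Hox genes had different values in distal and proximal fibroblasts at each stage, although no Hox gene passed the adjusted test. An order by paralog number was not tested. In HoxA, Hoxa2 to Hoxa5 were higher in distal and Hoxa7 higher in proximal fibroblasts at all 3 stages. Hoxa6, which lies between them, was also higher in proximal fibroblasts, by a smaller log2 difference (distal minus proximal -0.27, -0.42 and -0.03 in stage order). Hoxa2, known for the identity of the second branchial arch, in stage order from E13.5 to E17.5, was at 20.8, 21.5 and 17.47 FPKM in distal and 9.07, 10.7 and 8.97 FPKM in proximal fibroblasts. Hoxa4 was at 35.2, 18.7 and 11.3 FPKM in distal and 6.76, 4.68 and 4.35 FPKM in proximal fibroblasts at these stages. Hoxa5, the stomach regulator named above, was at 54.6, 37.1 and 37.6 FPKM in distal and 22.2, 20.4 and 25.2 FPKM in proximal fibroblasts. Hoxa3 was at 15.48, 22.1 and 22.3 FPKM in distal and 11.4, 11.3 and 9.39 FPKM in proximal fibroblasts. Hoxa7 reversed the order, at 12.2, 4.72 and 4.52 FPKM in distal and 49.4, 46.6 and 27.0 FPKM in proximal fibroblasts. Hoxa6 was at 6.20, 3.53 and 4.97 FPKM in distal and 7.71, 5.06 and 5.11 FPKM in proximal fibroblasts.

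**Figure D4:**
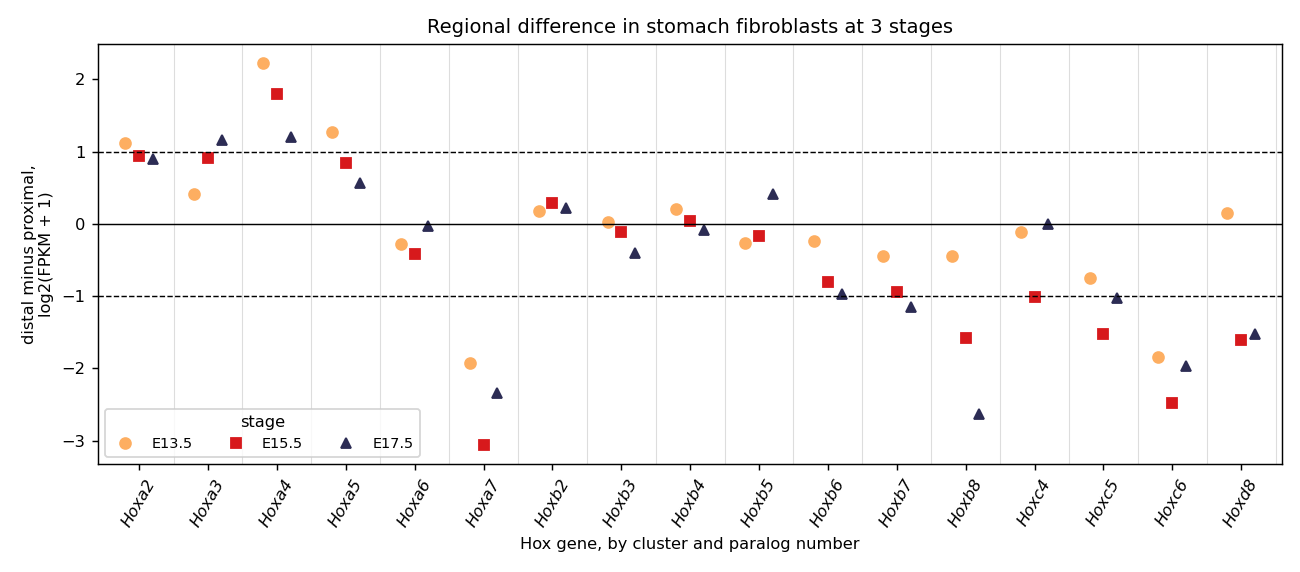
Distal minus proximal difference in log2(FPKM + 1) for Hox genes whose mean in fibroblasts reached 1 FPKM, at E13.5 (circles), E15.5 (squares) and E17.5 (triangles), 1 library per region and stage. Points lie above 0 for Hoxa2 to Hoxa5 and below it for Hoxa7, Hoxb6 to Hoxb8, Hoxc5 and Hoxc6, and dashed lines mark a difference of 1.

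Hoxc5, Hoxc6 and Hoxb6 to Hoxb8 had higher values on the proximal side at each stage. Hoxc6 was at 0.238, 0.0319 and 0.404 FPKM in distal and 3.46, 4.75 and 4.51 FPKM in proximal fibroblasts in stage order. Hoxc5 was at 8.34, 1.80 and 4.70 FPKM in distal and 14.7, 7.10 and 10.6 FPKM in proximal fibroblasts, lower in distal at each stage. Hoxc4 was at 13.8, 6.49 and 10.45 FPKM in distal and 14.98, 14.2 and 10.52 FPKM in proximal fibroblasts, apart at E15.5 only. Hoxd8, the single HoxD gene present, was at 0.572, 0.817 and 0.781 FPKM in distal and 0.419, 4.53 and 4.13 FPKM in proximal fibroblasts, so it was above 1 FPKM only in the proximal libraries of the later stages. Hoxb8 was at 19.9, 4.26 and 1.14 FPKM in distal and 27.5, 14.6 and 12.2 FPKM in proximal fibroblasts. Its distal minus proximal log2 difference was -0.45, -1.57 and -2.63 in stage order. For Hoxb7 these differences were -0.44, -0.94 and -1.15, and for Hoxb6 -0.24, -0.80 and -0.97, so for all 3 genes the gap was larger at each later stage. The anterior Hoxb2, Hoxb3 and Hoxb4 differed between regions by at most 0.40 on the log2 scale at any stage.

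No Hox gene passed the test of this contrast. With the 3 stages as a block, which leaves 2 residual degrees of freedom, limma called 0 of 18 Hox genes and 0 of 12900 genes (0.0%), and 10 of 18 Hox genes and 1287 of all genes had an unadjusted p under 0.05. The log2 difference was -2.44 ± 0.24 (SE, limma adjusted p = 0.19) for Hoxa7 and 1.74 ± 0.22 (SE, limma adjusted p = 0.243) for Hoxa4. For Hoxc6 it was -2.10 ± 0.26 (SE, limma adjusted p = 0.234), and for Hoxa2 0.98 ± 0.11 (SE, limma adjusted p = 0.202). As a description without a test, Hoxa4 was higher and Hoxa7 and Hoxc6 were lower in distal fibroblasts by at least 1 on the log2(FPKM + 1) scale at all 3 stages. Among all 12900 genes, 0.194% were higher and 0.163% lower by this rule. Of the 18 Hox genes 13 kept 1 direction over the 3 stages, and so did 33.0% of all genes. Among markers of other cells, the 10 genes listed for enteric neural crest and neurons summed to 82.7 to 102.4 FPKM in distal and 20.3 to 63.2 FPKM in proximal fibroblasts, mostly from Gfra1 and Ednrb, while Sox10 stayed at or below 0.0701 FPKM. Smooth muscle markers summed to 380.1 to 717.4 FPKM in distal and 736.1 to 1060 FPKM in proximal fibroblasts, and their part in the result was not tested.

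The RefSeq promoters of Hoxa2, Hoxa5 and Hoxa7 are shown because these genes of 1 cluster had opposite regional patterns. All 3 lie on the minus strand of chromosome 6 in GRCm38.p6, at chr6:52164782-52165081, chr6:52204538-52204837 and chr6:52218524-52218823 in that order. Capitals mark the same 3 motifs as above.
Hoxa2: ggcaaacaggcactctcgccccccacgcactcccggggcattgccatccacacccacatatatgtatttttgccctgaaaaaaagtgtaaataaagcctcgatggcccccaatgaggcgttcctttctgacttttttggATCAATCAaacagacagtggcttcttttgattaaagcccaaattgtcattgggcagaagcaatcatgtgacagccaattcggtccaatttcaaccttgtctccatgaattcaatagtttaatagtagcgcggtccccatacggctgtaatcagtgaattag
Hoxa5: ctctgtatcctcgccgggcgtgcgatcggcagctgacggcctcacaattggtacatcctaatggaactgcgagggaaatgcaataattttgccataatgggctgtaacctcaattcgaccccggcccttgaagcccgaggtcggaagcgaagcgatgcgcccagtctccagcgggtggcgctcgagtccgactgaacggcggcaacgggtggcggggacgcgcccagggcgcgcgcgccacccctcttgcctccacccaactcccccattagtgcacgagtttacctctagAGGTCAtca
Hoxa7: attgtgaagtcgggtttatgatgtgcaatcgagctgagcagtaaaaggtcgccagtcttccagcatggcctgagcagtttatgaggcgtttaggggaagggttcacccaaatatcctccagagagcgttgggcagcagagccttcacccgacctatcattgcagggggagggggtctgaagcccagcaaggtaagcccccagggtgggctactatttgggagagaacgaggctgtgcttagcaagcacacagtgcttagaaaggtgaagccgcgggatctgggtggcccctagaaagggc
Hoxa2 has 1 TGATTNAT match on the reverse strand, and Hoxa5 has 1 AGGTCA match after the start. In the Hoxa7 window none of these letters was found, which says nothing of the factors. The RefSeq start of Hoxa7 lies inside the span of the gene in the deposited table (52214491 to 52221854), and the starts of Hoxa2 and Hoxa5 match it.

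Between E13.5 and E17.5, the log2 differences of Hox genes in fibroblasts were largest for Hoxb6, Hoxb7 and Hoxb8 among the 8 genes called. Hoxb7 was at 19.0, 5.53 and 3.10 FPKM in distal and 26.3, 11.53 and 8.12 FPKM in proximal fibroblasts in stage order. Hoxb6 was at 21.95, 8.88 and 5.46 FPKM in distal and 26.0, 16.2 and 11.7 FPKM in proximal fibroblasts at these stages. Both genes were lower at each later stage in both regions, as was Hoxb8. Hoxb5 was at 21.7, 14.1 and 12.9 FPKM in distal and 26.2, 15.97 and 9.44 FPKM in proximal fibroblasts, and Hoxb2 at 27.4, 21.5 and 16.9 FPKM in distal and 24.1, 17.3 and 14.4 FPKM in proximal fibroblasts. Hoxb4 was at 19.8, 11.2 and 9.49 FPKM in distal and 17.1, 10.9 and 10.2 FPKM in proximal fibroblasts, and Hoxb3 at 22.2, 16.7 and 13.8 FPKM in distal and 21.9, 18.3 and 18.5 FPKM in proximal fibroblasts. By contrast, Hoxa3 in distal fibroblasts was at 22.3 FPKM at E17.5 and 15.48 FPKM at E13.5, and Hoxa2 at 17.47 FPKM at E17.5 and 20.8 FPKM at E13.5.

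**Figure D5:**
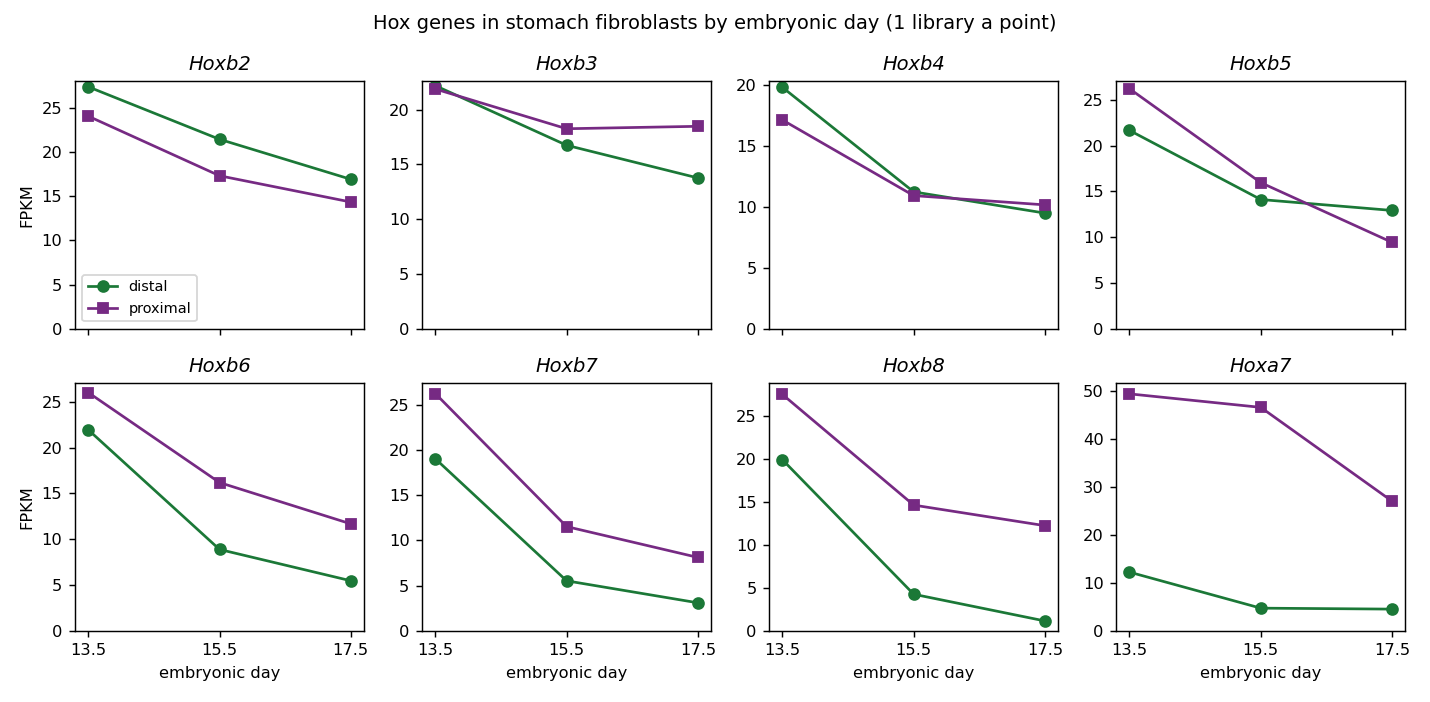
FPKM of Hoxb2 to Hoxb8 and Hoxa7 in distal (green circles) and proximal (purple squares) fibroblasts against embryonic day, 1 library a point, with lines joining the stages of a region. Hoxb6, Hoxb7 and Hoxb8 fall with stage and are lower on the distal side at each stage, and Hoxb8 there reaches 1.14 FPKM at E17.5.

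With region as a block, limma called 8 of 18 Hox genes lower at E17.5 than at E13.5 and 0 higher, where 27.1% of 12900 genes were called lower. They were Hoxa4, Hoxa7, Hoxb2 and Hoxb4 to Hoxb8. The log2 difference was -1.94 ± 0.21 (SE, limma adjusted p = 0.0068) for Hoxb7 and -1.46 ± 0.22 (SE, limma adjusted p = 0.0108) for Hoxb6. For Hoxb8 it was -2.20 ± 0.52 (SE, limma adjusted p = 0.0321), and for Hoxb2 -0.69 ± 0.12 (SE, limma adjusted p = 0.016). For Hoxb5 it was -1.04 ± 0.21 (SE, limma adjusted p = 0.0212), near that of Hoxa4, -1.05 ± 0.27 (SE, limma adjusted p = 0.0402), and that of Hoxa7, -1.05 ± 0.29 (SE, limma adjusted p = 0.0466). The median over the 18 genes was -0.51, and that of all genes was -0.31. With values rescaled to a sum of 1000000 per library the median of all genes was 0.00 and 2 Hox genes, Hoxb6 and Hoxb7, remained lower. Leaving out any 1 of the 6 libraries left 0 to 3 of them called, and 0 without either E13.5 library. The 9 mesenchymal markers, collagens among them, summed to 24280 and 32894 FPKM in distal and proximal fibroblasts at E17.5, against 4955 and 5911 FPKM at E13.5, and their part in the result was not tested.

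For 7 Hox genes the regional difference was called different between the 2 compartments. The test set the distal over proximal difference in fibroblasts against the Gata4hi over Sox2hi difference in E13.5 epithelium, in 1 limma fit over 13666 genes. Of 17 Hox genes tested, 7 were called higher (4.75% of all genes) and 2 lower (10.1% of all genes). Hoxa2 to Hoxa5 were among the 7, with higher values in distal than in proximal fibroblasts and no called difference in epithelium. Their fibroblast differences did not pass on their own either (limma adjusted p from 0.202 to 0.357). The joint fit uses a shared estimate of the spread, to which the E13.5 epithelial replicates contribute. The value was 2.03 ± 0.24 (SE, limma adjusted p = 5.1e-04) for Hoxa4 and 1.28 ± 0.22 (SE, limma adjusted p = 0.00418) for Hoxa5. For Hoxc5 both compartments had less on the distal or Gata4hi side, and the gap was larger in epithelium. Its value was 2.44 ± 0.39 (SE, limma adjusted p = 0.00266). Hoxc6 had the same direction, but it was at most 0.404 FPKM in distal fibroblasts and 0.0955 FPKM in Gata4hi cells. With these sides near the floor, its value of 1.18 mainly follows the levels of the other sides. Those were 7.60 to 10.05 FPKM in Sox2hi cells and 3.46 to 4.75 FPKM in proximal fibroblasts. The Hoxc6 value therefore cannot show a larger regional gap in epithelium. In fibroblasts alone neither gene passed, with limma adjusted p of 0.317 for Hoxc5 and 0.234 for Hoxc6. For Hoxc4 the value was 1.24 ± 0.29 (SE, limma adjusted p = 0.0175), the distal and proximal fibroblasts overlapped, with -0.38 ± 0.23 (SE, limma adjusted p = 0.653), and the call was lost in 4 of 14 fits with 1 library left out. The 2 lower genes, Hoxa7 and Hoxb7, passed the filter only through fibroblasts, as E13.5 epithelium had at most 0.401 FPKM of Hoxa7 and 0.0594 FPKM of Hoxb7. Their values, -2.49 ± 0.29 (SE, limma adjusted p = 4.8e-04) for Hoxa7 and -0.86 ± 0.22 (SE, limma adjusted p = 0.0256) for Hoxb7, restate the fibroblast differences, -2.44 ± 0.24 (SE, limma adjusted p = 0.19) for Hoxa7 and -0.85 ± 0.17 (SE, limma adjusted p = 0.352) for Hoxb7, which did not pass on their own, and they are no evidence of a difference between compartments. With E13.5 libraries only 5 were called higher and 1 lower, and with a pseudocount of 0.1 6 were higher and 1 lower. Without either E13.5 fibroblast library 4 were called lower, and without any 1 of the later fibroblast libraries, Sox2hi replicates 1 and 2 or Gata4hi replicate 3, 1 was. Gata4hi and Sox2hi cells were sorted by reporter and fibroblasts are labelled by region, so the 2 axes are alike by position only as far as the labels go.

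Among genes listed as Hox cofactors (of the Pbx, Meis and Pknox families), 8 of 9 tested were higher in fibroblasts than in epithelium at E13.5 and 0 lower, where 30.5% of all genes were higher, with a median log2 difference of 0.98 against 0.08 over all genes. Meis2 had the clearest regional pattern in epithelium, at 135.2, 124 and 94.3 FPKM in Gata4hi cells, 21.2 and 21.2 FPKM in Sox2midGata4mid cells and 34.1, 29.6 and 21.4 FPKM in Sox2hi cells. Its log2 difference between Gata4hi and Sox2hi cells was 2.03 ± 0.19 SE, limma adjusted p = 2.4e-04. Gata4hi cells stood far above both other groups. Of the 9 cofactors, 2 were higher (Meis2 and Pbx2) and 2 lower (Pbx3 and Pknox2) in Gata4hi than in Sox2hi cells, where 1955 of 13127 genes were higher and 6.7% lower.

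Of 11 tested genes of the retinoic acid axis, 6 were lower in Gata4hi than in Sox2hi cells at E13.5 and 0 higher, with a median log2 difference of -0.79 against 0.08 over all genes, of which 6.7% were lower. The largest was that of Aldh1a2, which makes retinoic acid, at 0.437, 0.179 and 0.580 FPKM in Gata4hi cells and 8.69, 8.36 and 7.35 FPKM in Sox2hi cells (log2 difference -2.71 ± 0.18 SE, limma adjusted p = 5.3e-05). Aldh1a1, another retinaldehyde dehydrogenase, was at 3.72, 3.83 and 5.49 FPKM in Gata4hi cells and 17.1, 19.2 and 17.4 FPKM in Sox2hi cells (log2 difference -1.83 ± 0.14 SE, limma adjusted p = 1.0e-04). The 6 were Aldh1a1, Aldh1a2, Crabp2, Dhrs3, Rarb and Rarg. In distal against proximal fibroblasts 0 of 15 passed the test. In fibroblasts 2 of 15 were higher and 7 lower at E17.5 than at E13.5, where 1285 of 12900 genes were higher and 27.1% lower, and among the 7 was Crabp1, a retinoic acid binding protein, with a log2 difference of -5.18 ± 0.24 SE, limma adjusted p = 0.00268.

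Of 17 noncoding transcripts of the clusters in the table, 4 passed the filter in E13.5 epithelium and 3 were lower in Gata4hi than in Sox2hi cells, where 6.7% of all genes were. Hotairm1, a noncoding RNA of the HoxA cluster, was at 14.8, 19.9 and 17.7 FPKM in Gata4hi cells and 51.3, 40.7 and 41.7 FPKM in Sox2hi cells (log2 difference -1.31 ± 0.18 SE, limma adjusted p = 0.0017). Hoxaas3, which overlaps exons of Hoxa3 and Hoxa7 on the other strand, was at 11.2, 7.64 and 2.58 FPKM in distal and 1.21, 1.48 and 0.817 FPKM in proximal fibroblasts at the 3 stages, opposite in direction to Hoxa7 and in the direction of Hoxa3. Hoxaas2 also overlaps exons of Hoxa3 on the other strand. It was at 4.44, 2.17 and 1.29 FPKM in distal and 1.83, 0.388 and 0.798 FPKM in proximal fibroblasts. The part of both transcripts in the Hoxa3 values was not tested. The libraries were made with a stranded kit, but the strand setting of the counting is not given in the sources used here, so reads of a gene and its antisense partner cannot be told apart with certainty. The same holds for genes whose exons overlap on 1 strand, such as Hoxc5 with Hoxc10 and Hoxd3 with Hoxd4. Of the Cdx and ParaHox genes only Pdx1 passed the filter in E13.5 epithelium, at 12.6, 14.5 and 8.15 FPKM in Gata4hi cells and listed at 0 in all 3 Sox2hi libraries. Cdx2, an intestinal regulator of Hox genes, was at 7.51 FPKM in the E11.5 Gata4hi library and at 1.13, 0.768 and 0.817 FPKM in Gata4hi cells at E13.5. Evx1 and Evx2, at the ends of the HoxA and HoxD clusters, did not exceed 0.239 FPKM.

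Of 22 chromatin regulators of the clusters tested in E13.5 epithelium, 1 was higher and 0 lower in Gata4hi than in Sox2hi cells, where 1955 of 13127 genes were higher. In fibroblasts 7 of 21 were lower at E17.5 than at E13.5 and 0 higher, where 27.1% of all genes were lower, with a median log2 difference of -0.38, close to the -0.31 of all genes. Cbx2, a Polycomb subunit, was at 18.4 and 13.7 FPKM in distal and proximal fibroblasts at E13.5, against 38.5, 36.0 and 34.6 FPKM in Gata4hi cells and 34.1, 36.1 and 33.0 FPKM in Sox2hi cells (log2 difference -1.14 ± 0.11 SE, limma adjusted p = 2.5e-05 for fibroblasts over all E13.5 epithelium).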

How the data were processed

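RNA was measured in 16 libraries of mouse embryonic stomach cells, made with a stranded poly(A) kit. Per the labels and the study's methods, the authors trimmed reads with cutadapt 1.16, aligned them to mm10 with HISAT2 2.1.0 and deposited FPKM values from Cufflinks 2.2.1. How Cufflinks was set for strand, annotation and normalization is not given in the sources used here. Read totals are not given, so no counting interval could be set.

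Hox genes were found by symbol, and of 40 entries 39 genes were kept. The members and the gene lists were chosen with earlier results of these data known. Values were transformed to log2(FPKM + 1), genes with a mean under 1 FPKM over the libraries of a fit were left out, and limma 3.58.1 in R 4.3.3 was fitted with a variance trend and Benjamini-Hochberg adjustment over all genes tested, with a threshold of 0.05. The fit was checked on simulated data. With 1 library a group, a difference of 1 on the log2 scale was used and no test was made. Values by library or as ranges were given for Hox genes whose mean reached 5 FPKM in any group or that were called, and the others by range and count; from the other lists, counts and up to 4 members with the largest change in a comparison, with Cdx2 added after its values were seen. The alternatives were a pseudocount of 0.1, filters of a mean above 0 or of at least 0.1 FPKM, a fixed sum of 1000000 per library (TPM scale), quantile normalization, no variance trend, only the 2 groups compared, a replicate block and leaving out each library. Some comparisons were also fitted with replicates 1 and 2 only, without the stage block, with all fibroblast libraries or with E13.5 libraries only.

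Sox2hi and Gata4hi libraries with the same replicate number deviated together (correlations 0.113, 0.119 and 0.163), and the labels do not say what a number stands for. Those with Sox2midGata4mid libraries were 0.0854 to 0.157. Column labels of Sox2hi and Gata4hi replicate 3 at E13.5 share a style with the E11.5 and fibroblast columns. The other E13.5 epithelial columns have another style, so style partly goes with stage, cell type and sorted group. What it stands for is not stated, and its part in the results was not tested. Relative depth was 0.719 and 0.724 in these replicate 3 libraries and 0.886 to 1.07 in the other E13.5 epithelial libraries. Promoters came from RefSeq, build GRCm38.p6, and were matched by symbol for 22 of the 39 genes. Gene spans are those of the deposited table. Some items, 1 Hox gene among them, are not reported here by name or value, though they stay in the counts and sums.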

Additional observations from a re-analysis of the deposited data

Results flagged for a closer look

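For 7 Hox genes the distal over proximal difference in fibroblasts was called different from the Gata4hi over Sox2hi difference in E13.5 epithelium, by limma's test of the difference itself. The difference of the 2 log2 differences was 1.41 for Hoxa2, 1.01 for Hoxa3, 2.03 for Hoxa4 and 1.28 for Hoxa5. It was 1.24 for Hoxc4, 2.44 for Hoxc5 and 1.18 for Hoxc6. The adjusted p of these 7 ranged from 5.1e-04 to 0.0175. Their fibroblast differences did not pass on their own, with limma adjusted p from 0.202 to 0.653. Hoxc6 was at most 0.404 FPKM in distal fibroblasts and 0.0955 FPKM in Gata4hi cells, near the floor. Its value mainly follows the levels in Sox2hi cells and proximal fibroblasts, so it cannot show a larger regional gap in epithelium. The call was lost in 4 of 14 fits with 1 library left out for Hoxc4, whose distal and proximal fibroblasts overlapped, and in 2 of 14 for Hoxa3. With E13.5 libraries only 5 Hox genes were called higher and 1 lower, and with a pseudocount of 0.1 6 were higher and 1 lower. The same value was -2.49 for Hoxa7 and -0.86 for Hoxb7, but both genes passed the filter only through fibroblasts, so these values restate the fibroblast difference and do not bear on the epithelium, and the call of Hoxb7 was lost in 7 of 14 fits.

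For Hoxc6 the Gata4hi over Sox2hi difference was lower at E13.5 than at E11.5, by -2.71 on the log2 scale (limma adjusted p = 0.0193). This test rests on 1 library a group at E11.5 and was chosen after the values were seen. Hoxc6 passed its filter only through Sox2hi cells of E13.5. The E11.5 libraries have no spread of their own, the call was lost in 5 of 6 fits with 1 library left out, and 0 Hox genes were called lower with a pseudocount of 0.1.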

How the results depend on the processing

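Over 66 pairs of a Hox gene and a comparison, 1043 alternative values were computed, of which 923 kept direction and side of the threshold, 112 kept direction and lost the call, 8 gained one and 0 reversed. For Sox2midGata4mid over Sox2hi cells, 2 Hox genes were lower with either lower filter or with only the 2 groups compared, and 1 to 2 with a library left out (2 without Gata4hi replicate 2 or 3). For E17.5 over E13.5 fibroblasts, 5 were lower with a filter above 0, 4 after quantile normalization and 2 on the TPM scale, and 0 to 3 with a library left out. For the difference between compartments, 5 were higher with E13.5 libraries only and 6 with a pseudocount of 0.1, and 1 was lower with a pseudocount of 0.1, on the TPM scale or with E13.5 libraries only, and 1 to 4 with a library left out. For fibroblasts over epithelium, 1 to 2 were lower with a library left out (1 without the distal library). For E13.5 over E11.5 epithelium, 0 to 4 were lower and 0 to 1 higher. For the change of the epithelial difference between stages, 2 were higher and 5 lower with a filter above 0, 0 were lower with a pseudocount of 0.1, and 0 to 1 with a library left out. The cause of these changes was not tested. With the replicate block 3 Hox genes were lower in Gata4hi than in Sox2hi cells, 1 was lower in Sox2midGata4mid than in Sox2hi cells and 3 were higher in Sox2midGata4mid than in Gata4hi cells, so the block changed no count. Depth is known only relative to other libraries, fibroblasts have 1 library per region and stage, and E11.5 epithelium 1 per group, so the spread there comes from stages or from E13.5.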
